A study of Homo sapiens with 8 samples.

Results

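The germline and cancer-testis gene families followed here were picked by gene name alone and not by any measured value. They comprised 91 of the 14884 gene symbols on the array, namely every symbol that begins like the GAGE, PRAME, PIWIL, SYCP, SPATA or TDRD families, the numbered TEX genes other than TEX14, and DAZL, DDX4 and MAEL. The names held 7 GAGE, 15 PRAME, 4 PIWIL, 4 SYCP, 27 SPATA, 7 TDRD and 24 TEX symbols beside the 3 single genes. The naming rule also covers MAGEA, MAGEB, MAGEC, PAGE, XAGE and SSX genes, which were not analysed here because the probe annotation used gave 0 such symbols. SPATA and TEX stand for names given after a first finding in testis, and several of these genes work in many tissues. By RefSeq 85 of the 91 are protein-coding genes, 5 are long non-coding RNAs and 9 lie on the X chromosome.

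RNA levels were read on Affymetrix arrays in 2 human cell lines, HepG2 from a liver carcinoma and LX2 from hepatic stellate cells. The 4 groups had 2 arrays each. They were HepG2 with CM272 at 400 nM for 48 h, HepG2 control with 0.1% DMSO for 48 h, LX2 with CM272 at the same dose and time, and LX2 control with 0.1% DMSO. CM272 is a small molecule inhibitor of G9a, which methylates histones, and of DNMT1, which copies DNA methylation. HepG2 was kept in 10% serum and LX2 in 2%, so that line and serum cannot be told apart, and each line stands in alone for its cell type.

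Germline genes are needed to make sperm and eggs and are kept silent in almost all other cells. DNA methylation of their promoters and repressive methylation of histone H3, in part laid down by G9a, hold many of them off, and cancer-testis antigens such as GAGE and PRAME can escape this in tumours. The families cover different steps of germ cell life. PIWI proteins bind small piRNAs that silence transposons, Tudor proteins and the helicase DDX4 build the germ granules in which these piRNAs are made, and SYCP proteins zip paired chromosomes together in meiosis.

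The arrays carried the marks of their lines. The 7 measured hepatocyte markers averaged log2 11.42 to 11.64 on the HepG2 arrays and 3.94 to 4.11 on the LX2 arrays, and the 4 measured stellate markers averaged 4.81 to 4.98 on the HepG2 arrays and 7.34 to 7.90 on the LX2 arrays. Of 9 listed stellate markers 4 were measured (VIM, THY1, LOX and TAGLN), and the collagens were not analysed here. LOX fell in LX2 with CM272 (limma), and CD14 rose. The part of either in the results below was not tested. The 2 measured leukocyte markers, CD14 and CD68, averaged 5.95 to 6.63 on the HepG2 arrays and 7.68 to 8.40 on the LX2 arrays, and 3 endothelial markers 3.09 to 3.73 and 4.26 to 4.82. The 7 measured Sertoli and Leydig cell markers averaged 5.46 to 5.51 in HepG2 with CM272, 5.35 in HepG2 control, 5.05 to 5.19 in LX2 with CM272 and 4.97 to 5.01 in LX2 control. The LX2 arrays with CM272 stood further apart than those of the other groups. Their replicates differed by a median of 0.26 log2 over all genes, against 0.13 to 0.16 in the other 3 groups. Over the 91 genes the median was 0.27, against 0.23 in HepG2 with CM272, 0.17 in HepG2 control and 0.15 in LX2 control.

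Promoter sequences of 5 genes are shown because the first 3 belong to the genes that rose in LX2, the fourth to a close relative of GAGE10 that did not pass the test, and the fifth to a germ cell gene with a CpG-rich promoter that was not called. Each is the 300-base window around the RefSeq gene start (GRCh38.p14), read 5′ to 3′ on the gene's own strand, with every CG dinucleotide, the site of DNA methylation, in capitals. SPATA25 lies on the minus strand at chr20:45887573-45887872, SPATA3-AS1 on the minus strand at chr2:230995983-230996282, GAGE10 on the plus strand at chrX:49303396-49303695, GAGE12H on the plus strand at chrX:49579699-49579998 and DAZL on the minus strand at chr3:16605374-16605673.
SPATA25: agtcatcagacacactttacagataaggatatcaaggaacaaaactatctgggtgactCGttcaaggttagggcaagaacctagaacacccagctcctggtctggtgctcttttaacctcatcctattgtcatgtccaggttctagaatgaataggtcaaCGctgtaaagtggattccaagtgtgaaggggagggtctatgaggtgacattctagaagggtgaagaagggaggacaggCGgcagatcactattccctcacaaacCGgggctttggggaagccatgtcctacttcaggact
SPATA3-AS1: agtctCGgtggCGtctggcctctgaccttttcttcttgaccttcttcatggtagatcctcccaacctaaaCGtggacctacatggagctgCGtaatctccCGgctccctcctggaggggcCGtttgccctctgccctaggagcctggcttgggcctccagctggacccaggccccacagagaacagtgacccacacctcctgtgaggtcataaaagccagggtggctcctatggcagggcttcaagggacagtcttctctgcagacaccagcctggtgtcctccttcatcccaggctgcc
GAGE10: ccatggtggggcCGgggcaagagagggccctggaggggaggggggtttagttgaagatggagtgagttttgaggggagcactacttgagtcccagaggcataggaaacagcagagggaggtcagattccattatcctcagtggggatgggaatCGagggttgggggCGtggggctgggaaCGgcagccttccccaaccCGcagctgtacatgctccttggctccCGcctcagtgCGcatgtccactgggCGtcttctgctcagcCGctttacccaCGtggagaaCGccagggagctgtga
GAGE12H: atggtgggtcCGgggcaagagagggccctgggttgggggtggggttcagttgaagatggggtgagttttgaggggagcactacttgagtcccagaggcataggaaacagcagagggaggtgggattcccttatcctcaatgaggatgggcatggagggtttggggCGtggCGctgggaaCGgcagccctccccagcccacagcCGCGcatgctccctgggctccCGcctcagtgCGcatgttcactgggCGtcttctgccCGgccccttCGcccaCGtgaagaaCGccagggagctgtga
DAZL: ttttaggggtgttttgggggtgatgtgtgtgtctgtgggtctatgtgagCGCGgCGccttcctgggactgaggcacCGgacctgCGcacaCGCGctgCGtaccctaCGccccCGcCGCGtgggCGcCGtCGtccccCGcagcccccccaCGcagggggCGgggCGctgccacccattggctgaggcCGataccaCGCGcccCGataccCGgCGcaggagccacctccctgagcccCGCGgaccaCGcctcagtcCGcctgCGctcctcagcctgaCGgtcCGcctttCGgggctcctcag
These windows held 4, 6, 11, 13 and 33 CG dinucleotides in the order shown. The GAGE10 window was 88.8% identical to that of GAGE12H in a global alignment. The windows of GAGE12C, GAGE12H, GAGE12J and GAGE2A were 100% identical to each other. The values of single GAGE copies are uncertain, since near-identical copies can share signal. Promoter windows are not the probed transcripts, and shared signal on the array was not tested.

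These genes were dimmer than the rest of the array. On a log2 scale where a value of 4 serves as a limit of brightness, 36 of 91 (39.6%) lay under 4 on all 8 arrays, against 13.9% of all symbols. In all, 45 of 91 were over 4 in both arrays of some group, against 82.2% of all symbols. The median over the 91 genes was 3.86 and 3.81 on the HepG2 arrays with CM272, 3.81 on both HepG2 control arrays, 4.05 and 4.01 on the LX2 arrays with CM272, and 3.92 and 3.97 on the LX2 control arrays. In bulk RNA, fewer cells with a transcript and less of it per cell cannot be told apart.

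**Figure D1:**
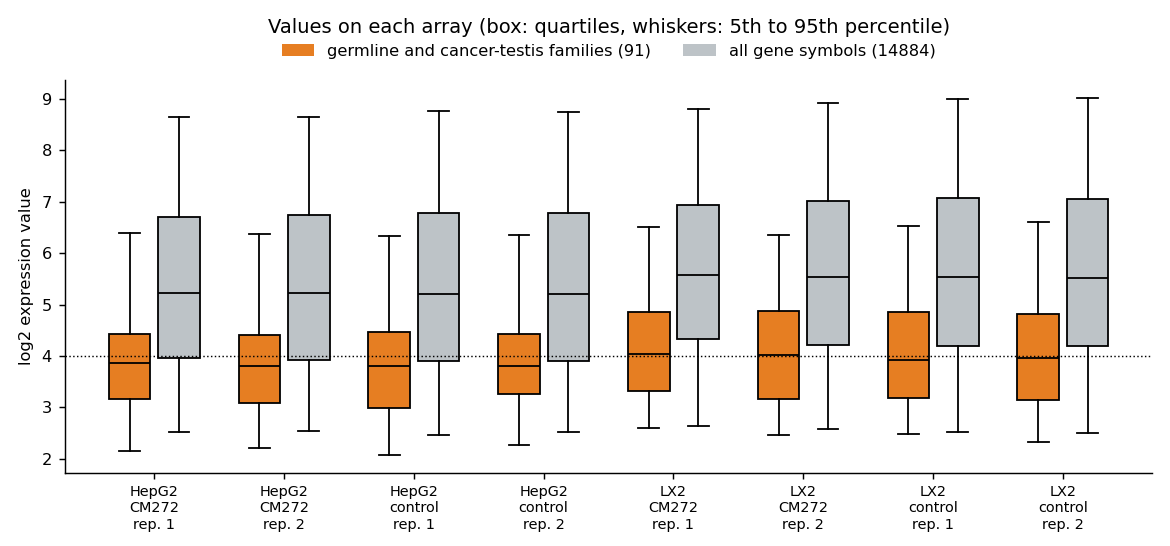
Log2 expression values on each array for the 91 germline and cancer-testis genes (orange) and all 14884 gene symbols (grey), with boxes at the quartiles, whiskers at the percentiles given in the title and the dotted line at log2 4. The orange medians lie between 3.81 and 4.05 on all 8 arrays, and the grey boxes sit higher.

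What inhibition of both enzymes does in stellate cells was addressed by LX2 with CM272 against LX2 control. In these families 3 genes rose: SPATA25, SPATA3-AS1 and GAGE10. In limma with Benjamini-Hochberg adjustment over all 14884 genes, 5.11% of all genes changed and 2.43% rose, beside these 3 of 91 (3.3%). In limma 0 of the 91 fell, where 2.67% of all genes fell. At an unadjusted p under 0.05, 8 of the 91 (8.79%, against 9.76% of all genes) were higher and 4 (4.4%, against 12.1%) lower. The median difference was 0.04 over the 91 genes and 0.00 over all genes, and 2 of the 91 differed by more than log2 1.

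SPATA25, a protein linked to spermatogenesis, had the largest change of the 91 genes. Its values were 6.91 and 6.40 in LX2 with CM272, against 5.58 and 5.38 in LX2 control (log2, probe set 16919692). In LX2 both CM272 arrays lay above both control arrays, and the gene rose by log2 1.17 (SE 0.19, a 2.25-fold level, limma adjusted p = 0.0165). In HepG2 SPATA25 stood at 7.63 and 7.82 in HepG2 with CM272, against 7.53 and 7.75 in HepG2 control, so the groups overlapped there at a level above every LX2 array. The gene overlaps NEURL2, a ubiquitin ligase adaptor, in RefSeq, and NEURL2 differed in LX2 by 0.23 (SE 0.16, limma adjusted p = 0.433).

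SPATA3-AS1 (probe set 16909472) is a long non-coding RNA with a name that marks it as antisense to SPATA3. Its values were 3.52 and 3.95 in LX2 with CM272, against 2.76 and 2.69 in LX2 control. Again the LX2 groups did not overlap, and SPATA3-AS1 rose by 1.01 (SE 0.17, 2.01-fold, limma adjusted p = 0.019). All 4 LX2 values lay under log2 4, where the summary method compresses folds. In HepG2 it had 4.35 and 4.10 in HepG2 with CM272, against 3.84 and 3.83 in HepG2 control, a difference of 0.39 that did not pass (SE 0.17, limma adjusted p = 0.498) although both CM272 arrays lay higher. SPATA3 itself lies on the opposite strand, and RefSeq listed no overlap between SPATA3 and SPATA3-AS1. SPATA3 differed by 0.17 in LX2 (limma adjusted p = 0.715), with 3.39 and 3.07 in LX2 with CM272, against 3.03 and 3.08 in LX2 control. Whether the probe sets read 1 strand is not given in the sources used here.

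GAGE10 (probe set 17103608) belongs to the GAGE tumour antigens of the X chromosome, which T cells can recognise on tumour cells. It stood at 4.09 and 3.94 in LX2 with CM272, against 3.46 and 3.20 in LX2 control. The groups did not overlap, and GAGE10 rose by 0.68 (SE 0.15, 1.61-fold, limma adjusted p = 0.0371). Both LX2 control values lay under log2 4, where RMA compresses folds. In HepG2 it had 3.91 and 3.93 in HepG2 with CM272, against 3.72 and 3.74 in HepG2 control, a difference of 0.19 (limma adjusted p = 0.714) with both CM272 arrays higher.

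The 3 calls needed both LX2 control arrays, as did most calls over all genes. Without LX2 control replicate 1 the differences were 1.27 for SPATA25, 1.04 for SPATA3-AS1 and 0.81 for GAGE10. Without LX2 control replicate 2 they were 1.07, 0.97 and 0.55. Either fit leaves 1 LX2 control array. Without LX2 CM272 replicate 1 the differences were 0.92 for SPATA25, 1.22 for SPATA3-AS1, 0.61 for GAGE10 and 0.99 for PIWIL3. That fit leaves a single LX2 CM272 array. GAGE10 kept its call in 7 of the 19 alternatives in which it was tested. Among the 7 is the setting that counts genes with identical values once. It repeats the main fit, since 0 of the 91 had identical values. It was not over log2 4 in both arrays of any group, so either brightness filter leaves it out. It did not pass after quantile normalization over 8 arrays (limma adjusted p = 0.0625), or without any one HepG2 array (0.68, adjusted p = 0.0623 to 0.0708).

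**Figure D2:**
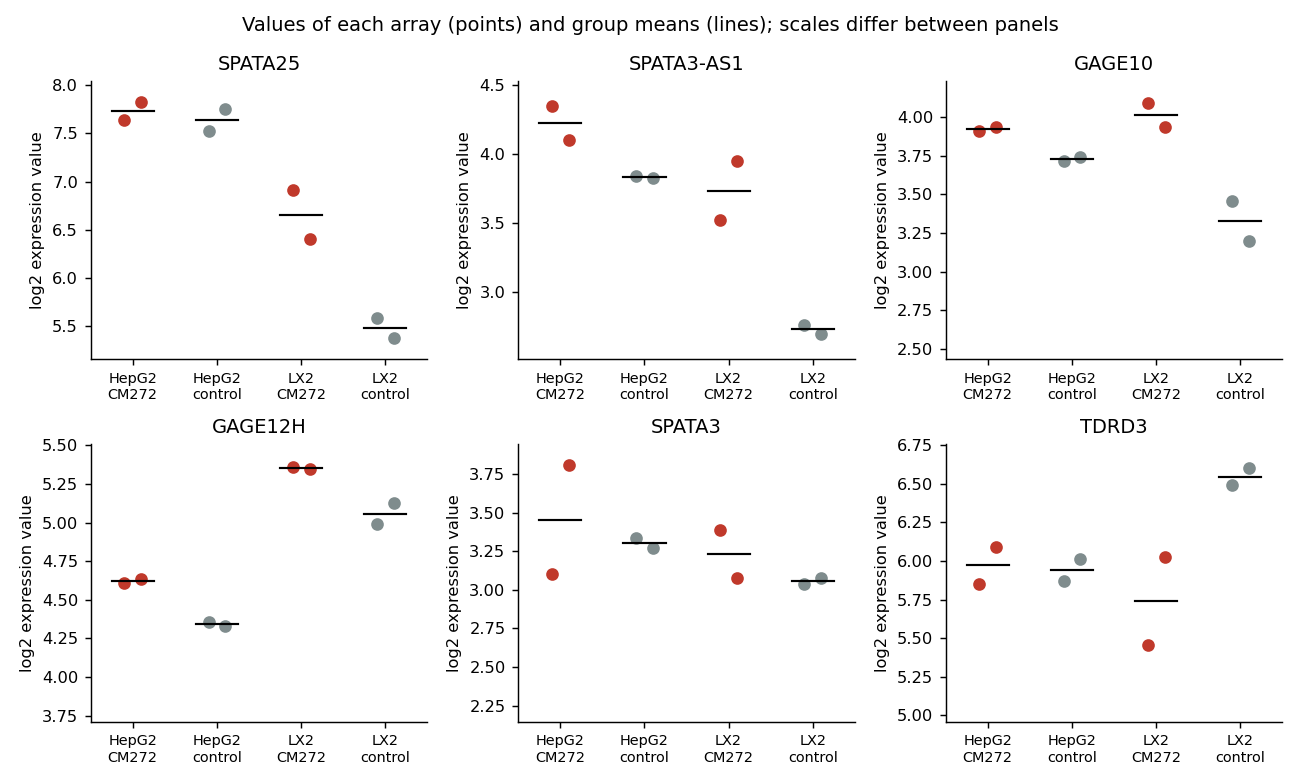
Log2 expression value of each array (points) and the mean of each group (lines) for 6 genes, with CM272 in red, control in grey and a scale of its own in each panel. SPATA25, SPATA3-AS1 and GAGE10 are higher in both LX2 arrays with CM272 than in both LX2 control arrays, and TDRD3 is lower.

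TDRD3, SPATA20 and TEX11 came close to the threshold in LX2. TDRD3 is a Tudor protein that reads methylated arginines and partners topoisomerase TOP3B, a role not tied to germ cells. It had 5.46 and 6.02 in LX2 with CM272, against 6.49 and 6.60 in LX2 control, so that both CM272 arrays were lower but spread widely, and the difference of -0.81 (SE 0.20) missed the threshold (limma adjusted p = 0.0518). With only genes over log2 4 in both arrays of some group kept, 12239 genes and 45 of the 91 were tested. There TDRD3 fell (limma adjusted p = 0.0358) and so did SPATA20 (-0.54, adjusted p = 0.0422). These are 2 of 45 (4.44%), where 4.63% of all genes tested there fell. SPATA20 had 6.58 and 6.36 in LX2 with CM272, against 7.02 and 6.99 in LX2 control, and missed the threshold over all genes (limma adjusted p = 0.0613). Without LX2 CM272 replicate 2 TDRD3 was at -1.09, and without replicate 1 at -0.52, where SPATA20 was at -0.65.

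Of the 7 GAGE antigens, GAGE10 was the only one past the test in LX2, and the differences of the family ran from -0.25 to 0.68 with a median of 0.23. GAGE12H had 5.36 and 5.35 in LX2 with CM272, against 4.99 and 5.13 in LX2 control, a difference of 0.29 (SE 0.14, limma adjusted p = 0.246) in which the groups did not overlap. In HepG2 GAGE12H stood at 4.61 and 4.63 in HepG2 with CM272, against 4.35 and 4.33 in HepG2 control, a difference of 0.28 (limma adjusted p = 0.53). GAGE13 was lower in both lines without passing the test. It had 3.52 and 3.27 in HepG2 with CM272, against 4.22 and 3.71 in HepG2 control (-0.57, SE 0.19), and 3.75 and 3.78 in LX2 with CM272, against 3.92 and 4.11 in LX2 control (-0.25, SE 0.19). Subtracting the LX2 difference from the HepG2 difference gave values below 0 for all 7 GAGE genes, with a median of -0.24. Near-identical copies can share signal, so these may not be 7 separate readings. Of all 14884 genes 7406 lay above 0 in this contrast. The PRAME family had a median of -0.29 there, with 3 of 15 above 0. In the limma test of that contrast 0 of the 7 GAGE genes passed. At an unadjusted p under 0.05, 1 of the 7 was lower, where 7.74% of all genes were.

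The PRAME family comprises PRAME, a melanoma antigen that represses retinoic acid signalling, and the multi-copy PRAMEF genes of chromosome 1. The PRAMEF genes were not aligned here, and their single values are uncertain where copies share signal. In LX2 limma called 0 of the 15, with a median of 0.07 and a range of -0.11 to 0.53. By unadjusted p under 0.05, 2 of the 15 were higher and 0 lower, where 9.76% and 12.1% of all genes were. PRAME itself, named after its values were seen, had 3.74 and 3.84 in HepG2 with CM272, against 4.08 and 4.05 in HepG2 control, and 4.51 and 4.38 in LX2 with CM272, against 4.30 and 4.45 in LX2 control. Those values differed by -0.27 in HepG2 and 0.07 in LX2 (limma adjusted p = 0.555 and 0.822). PRAMEF15 had the widest difference of the family in LX2, with 4.56 and 4.91 in LX2 with CM272, against 4.34 and 4.07 in LX2 control (0.53, limma adjusted p = 0.149). PRAMEF12 had the widest in HepG2, with 3.95 and 4.23 in HepG2 with CM272, against 3.12 and 3.81 in HepG2 control (0.63, limma adjusted p = 0.498), and the groups there did not overlap. PRAMEF22 (probe set 16659395), the family's brightest probe set, differed by -0.11 in HepG2 and -0.07 in LX2.

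The 12 genes of the germ granule and piRNA pathway gave no call with CM272. Their median difference was -0.04 in HepG2 and 0.02 in LX2, and 8 of 12 lay under log2 4 on every array. In limma 0 of 12 passed in either line. At an unadjusted p under 0.05, 1 of 12 was higher in HepG2 and 0 in LX2, where 4.62% and 9.76% of all genes were. DDX4, the germ cell helicase also called VASA, had 2.53 and 2.60 in HepG2 with CM272, against 2.53 and 2.50 in HepG2 control, and 2.71 and 2.45 in LX2 with CM272, against 2.60 and 2.43 in LX2 control. DAZL, an RNA-binding protein that drives translation in germ cells, had 4.05 and 3.63 in HepG2 with CM272, against 4.58 and 3.66 in HepG2 control, and 4.05 and 3.85 in LX2 with CM272, against 3.62 and 3.81 in LX2 control. DAZL differed by -0.28 in HepG2 (limma adjusted p = 0.799), where 1 control array lay above the other 3, and by 0.23 in LX2.

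MAEL, which acts in nuclear transposon silencing in mice and flies, had 3.32 and 3.90 in HepG2 with CM272, against 3.42 and 3.45 in HepG2 control, and 3.45 and 3.07 in LX2 with CM272, against 3.32 and 3.14 in LX2 control. TDRD1, a scaffold of the germ granule in mouse, had the smallest limma adjusted p of the 91 genes in HepG2 (0.369), with 2.997 and 3.17 in HepG2 with CM272, against 2.21 and 2.68 in HepG2 control, a difference of 0.64 (SE 0.20). In LX2 TDRD1 had 2.86 and 3.23 in LX2 with CM272, against 2.76 and 2.56 in LX2 control. PIWIL3 was at 3.17 and 4.15 in LX2 with CM272, against 3.17 and 3.14 in LX2 control, and the difference of 0.50 (SE 0.28) came from 1 CM272 array. PIWIL2, whose mouse counterpart MILI loads piRNAs in fetal germ cells, differed by 0.04 in HepG2 and -0.20 in LX2.

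All 7 genes of meiotic chromosomes lay under log2 4 on every array, and 0 of 7 passed limma in either line. At an unadjusted p under 0.05, 1 of 7 was higher in LX2 and 0 in HepG2, where 9.76% and 4.62% of all genes were. TEX11, an X-linked gene required for chromosome pairing in male meiosis, had the largest difference, with 2.64 and 2.98 in LX2 with CM272, against 2.19 and 2.23 in LX2 control (0.60, SE 0.16, limma adjusted p = 0.0684). Both CM272 arrays were higher, and without LX2 CM272 replicate 1 the TEX11 difference was 0.77. SYCP3, a lateral element protein of the synaptonemal complex, had 3.19 and 3.08 in HepG2 with CM272, against 2.99 and 3.37 in HepG2 control, and 2.60 and 2.80 in LX2 with CM272, against 2.48 and 2.57 in LX2 control. SYCP2, its partner, differed by 0.17 in HepG2 and -0.11 in LX2, and SYCP2L, its paralog, by 0.17 and -0.19.

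The remaining 26 SPATA and 22 TEX genes held the other 2 genes that rose in LX2, SPATA25 and SPATA3-AS1, and 0 that fell. Their median differences in LX2 were 0.05 and -0.01. TEX10, a nuclear protein of ribosome biogenesis, was well above the brightness limit in all groups and differed by -0.15 in LX2 (limma adjusted p = 0.626). In HepG2 TEX10 had 8.92 and 8.63 in HepG2 with CM272, against 9.17 and 9.13 in HepG2 control, a difference of -0.38 (SE 0.15, limma adjusted p = 0.44) in which both CM272 arrays lay lower. TEX38 had the widest difference of the TEX genes in HepG2, with 4.03 and 3.56 in HepG2 with CM272, against 4.23 and 4.63 in HepG2 control (-0.64, limma adjusted p = 0.521). SPATA13-AS1, an antisense RNA, differed by 0.14 in HepG2 and -0.21 in LX2.

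**Figure D3:**
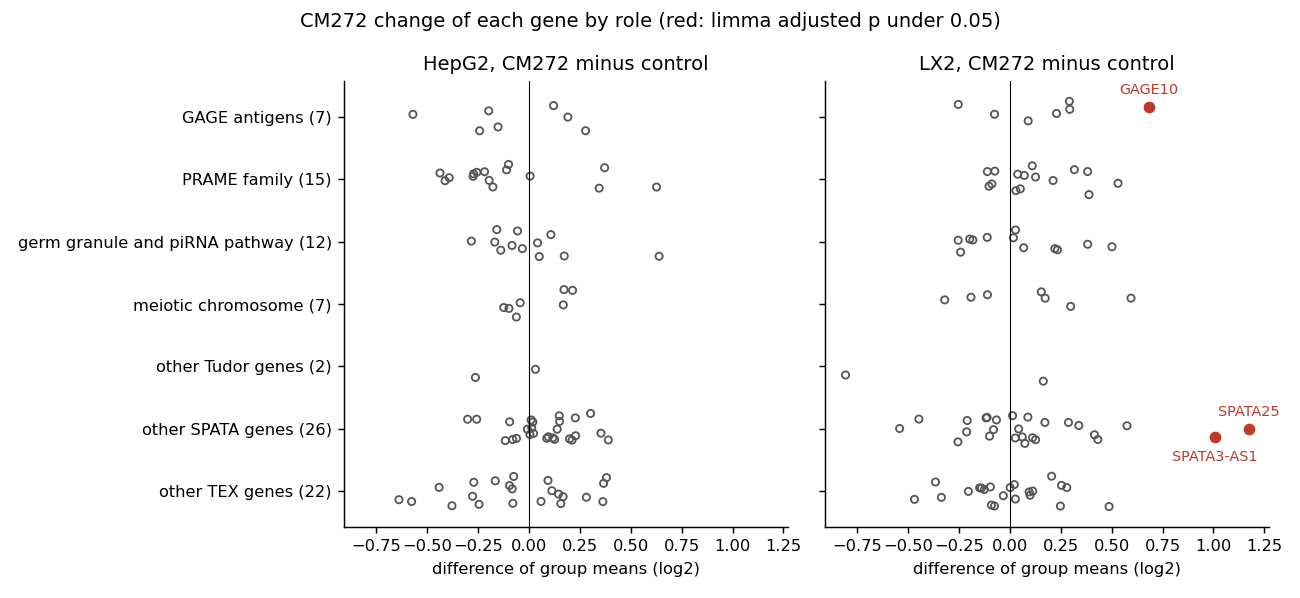
Difference of group means (log2, CM272 minus control) of each of the 91 genes by role, for HepG2 (left) and LX2 (right), with the number of genes in brackets and genes past the limma threshold in red. Only GAGE10, SPATA25 and SPATA3-AS1 are red, all in LX2, and the differences in HepG2 lie between -0.64 and 0.64.

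In HepG2, a hepatoma line, limma called 0 of the 91 genes for CM272 against control, where 0.0134% of all genes were called, 0.00672% in each direction. By unadjusted p under 0.05, 1 was higher (1.1%, against 4.62% of all genes) and 5 lower (5.49%, against 5.49%). The median was -0.01 over the 91 genes and over all genes. The largest difference of the 91 was 0.64. Both CM272 arrays lay above both control arrays for 13 of 91 (14.3%, against 20.8% of all genes) and below for 19 (20.9%, against 25.4%). In LX2 the same counts were 23 above (25.3%, against 23.8%) and 15 below (16.5%, against 25.4%). With a gap of at least log2 1 between the groups the counts were 0 in both lines, where 0.0134% of all genes lay above and 0.0336% below in HepG2, and 0.558% above and 0.134% below in LX2.

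Whether CM272 acted differently in the 2 lines was tested by subtracting the LX2 effect from the HepG2 effect. In limma 0 of the 91 passed, where 0.531% of all genes did, 0.128% higher and 0.403% lower. By unadjusted p under 0.05, 2 were higher (2.2%, against 7.3% of all genes) and 8 lower (8.79%, against 7.74%). SPATA25 had the smallest adjusted p, with a change of 0.09 in HepG2, 1.17 in LX2 and -1.08 between them (SE 0.28, limma adjusted p = 0.124). SPATA3-AS1 (-0.62, adjusted p = 0.282), GAGE10 (-0.49, adjusted p = 0.314) and TDRD3 (0.84, adjusted p = 0.208) did not pass in limma either. Without LX2 CM272 replicate 2, SPATA25 stood at -1.34 between the lines. That fit leaves a single LX2 CM272 array, so only the size is given. Among fits of all 8 arrays, SPATA25 passed only with a filter at log2 6 (-1.08, limma adjusted p = 0.0434). The filter keeps genes over log2 6 in both arrays of some group. SPATA25 met that filter in HepG2 and in LX2 with CM272 but not in LX2 control, so this call is no separate support. Over the 91 genes the changes in the lines correlated at r = 0.12 (Spearman 0.10), a description over genes that share the arrays.

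The control lines differed in many of these genes. Of the 91, 12 were higher and 23 lower in HepG2 control than in LX2 control (limma), where 50.8% of all genes differed, 16% higher and 34.8% lower. By unadjusted p under 0.05 the counts were 13 and 24, against 18% and 38.2% of all genes. Both HepG2 control arrays lay above both LX2 control arrays for 20 genes (22%, against 27.4%) and below for 42 (46.2%, against 51.7%). The whole table is shifted in this comparison, with a median of -0.21 over all genes and -0.22 over the 91, and differences are therefore also given relative to the median of all genes. With each array centred on its median, 22 of the 91 were higher (24.2%, against 28.4% of all genes) and 10 lower (11%, against 22.2%), and the medians were 0.11 over the 91 genes and 0.11 over all genes. With quantile normalization over 8 arrays 14 were higher (15.4%, against 24.8% of all genes) and 11 lower (12.1%, against 23.9%). Leaving out a control array lowered the calls both among the 91 and over all genes. When single arrays were left out the median over the 91 genes ran from -0.22 to -0.11.

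TEX30, a gene of unknown function with a hydrolase fold, differed most. It had 2.66 and 3.52 in HepG2 control, against 7.21 and 7.12 in LX2 control, a difference of -4.08 (SE 0.26, -3.87 relative to all genes, limma adjusted p = 1.42e-06). All 4 HepG2 values of TEX30 were under log2 4, where RMA compresses folds. SPATA6, needed in mice for the connecting piece of the sperm tail, had 4.38 and 4.11 in HepG2 control, against 6.25 and 6.20 in LX2 control (-1.98, SE 0.15, limma adjusted p = 4.21e-06). SYCP2 had 1.86 and 1.75 in HepG2 control, against 3.44 and 3.25 in LX2 control (-1.54, SE 0.15, limma adjusted p = 2.00e-05), dim in both lines. In the same direction TEX9 (-1.17), TEX261, an early secretory pathway protein (-0.99), TDRD6, a germ granule scaffold in mice (-0.95), TEX2, which acts in lipid transfer at endoplasmic reticulum contacts (-0.84), and SPATA7, a cilium protein of photoreceptors (-0.81), were lower in HepG2. SPATA7 lost the call with quantile normalization over 8 arrays (-0.48, limma adjusted p = 0.0629). Relative to all genes these 5 differences ran from -0.95 for TEX9 to -0.60 for SPATA7.

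SPATA25 led the genes that were higher in HepG2, with 7.53 and 7.75 in HepG2 control, against 5.58 and 5.38 in LX2 control (2.16, SE 0.19, 2.37 relative to all genes, limma adjusted p = 1.49e-05). SPATA18, also called MIEAP, a p53-inducible protein of mitochondrial quality control, had 6.33 and 6.43 in HepG2 control, against 4.40 and 4.48 in LX2 control (1.94, SE 0.14, limma adjusted p = 2.72e-06). SPATA3-AS1 was higher too (1.11), and GAGE10 by 0.40 (limma adjusted p = 0.0488, lost without any one of the control or HepG2 CM272 arrays). This comparison and that of CM272 in LX2 share the LX2 control arrays. The others were the non-coding RNA TEX41 (1.05), PIWIL1, a human PIWI protein of male germ cells (0.98), SPATA6L (0.91), PIWIL3 (0.89) and SPATA2L, a relative of the ubiquitin adaptor SPATA2 (0.70). PIWIL3 and SPATA2L lost the call without any one of the 4 control arrays (0.84 to 0.94 and 0.59 to 0.81).

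Within families the control lines differed in both directions. Of the 7 GAGE genes GAGE10 was higher in HepG2, while GAGE12H (-0.71, SE 0.14), GAGE12G (-0.58) and GAGE12J (-0.77) were lower. With centred arrays or quantile normalization over 8 arrays GAGE12H was still lower, and GAGE12G and GAGE12J kept their direction without passing. Of the PIWI genes PIWIL1 and PIWIL3 were higher and PIWIL4 lower (-0.55, lost under both of these scalings). Of the synaptonemal genes SYCP3 was higher (0.65, SE 0.17) and SYCP2 and SYCP2L (-0.80) lower. SYCP3 lost the call without LX2 control replicate 1 (0.61, limma adjusted p = 0.0658) or HepG2 control replicate 2 (0.46, adjusted p = 0.0951). SYCP2L lost it with centred arrays (-0.47, limma adjusted p = 0.156), without LX2 control replicate 1 (-0.49, adjusted p = 0.221) and without HepG2 control replicate 1 (-0.56, adjusted p = 0.185). PIWIL4 lost it also without LX2 control replicate 1 or HepG2 control replicate 2, GAGE12J without replicate 2 of either control, and GAGE12G without any one control array.

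**Figure D4:**
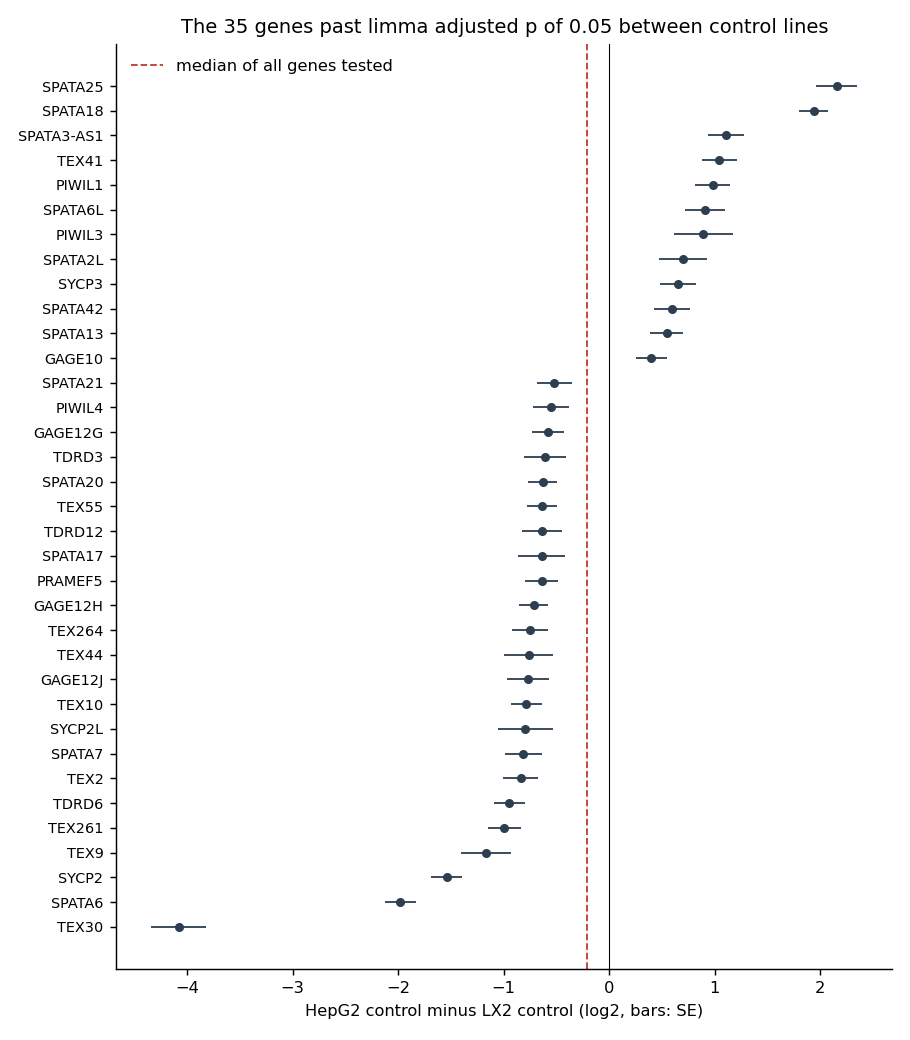
Difference between HepG2 control and LX2 control (log2, bars are SE, 2 arrays per group) for the 35 of 91 genes past the limma threshold, with the median of all genes as a dashed line at -0.21. TEX30 lies lowest at -4.08 and SPATA25 highest at 2.16.

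Promoter windows were compared by their CpG content. Of the 91, 75 had a promoter window in the RefSeq table, with a median of 13 CG dinucleotides against 16 over 27305 gene windows, and 28 of 75 (37.3%) held 20 or more, against 44.7% of all windows. The E2F motif TCCCGC, searched on both strands as the core site of a factor that keeps germline genes silent, was in 25 of 75 windows (33.3%, against 28.4% of all), and the E-box CACGTG, bound by MAX and its partner MGA in the same repressor complex, in 11 (14.7%, against 7.54%). Both shares rest on the 7 near-identical GAGE windows, all of which hold both motifs. Of the other 68 windows 18 (26.5%) held TCCCGC and 4 (5.88%) held CACGTG, below the shares of all windows. The windows of GAGE10 and GAGE12H held both motifs, and those of SPATA25, SPATA3-AS1 and DAZL held neither. The PIWIL2, PIWIL3, PIWIL4, PRAMEF19, PRAMEF22, SPATA16, SPATA19, SPATA31G1, SPATA45, SPATA6, TEX12, TEX19, TEX22, TEX41, TEX46 and TEX48 entries had no window.

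All 3 genes that rose in LX2 had fewer than 20 CG dinucleotides in the window, as did 47 of the 75 genes with a window. Over all genes 112 of 3929 with fewer than 20 rose in LX2, and 140 of 6820 with 20 or more. The LX2 difference had a median of 0.11 over the 47 genes with fewer than 20 and -0.11 over the 28 with 20 or more, and over all genes the medians were 0.06 and -0.06 in the same order. Among genes that were not over log2 4 in both arrays of any group, the medians were 0.13 (22 genes) and 0.03 (15 genes). In HepG2 the medians were 0.02 and -0.06 over the 47 and 28 genes, and 0.02 and -0.03 over all genes. Of the 9 X-linked genes 7 are the GAGE copies described above, and the other 2 lay on opposite sides of 0 in LX2, TEX11 at 0.60 and TEX28 at -0.36.

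**Figure D5:**
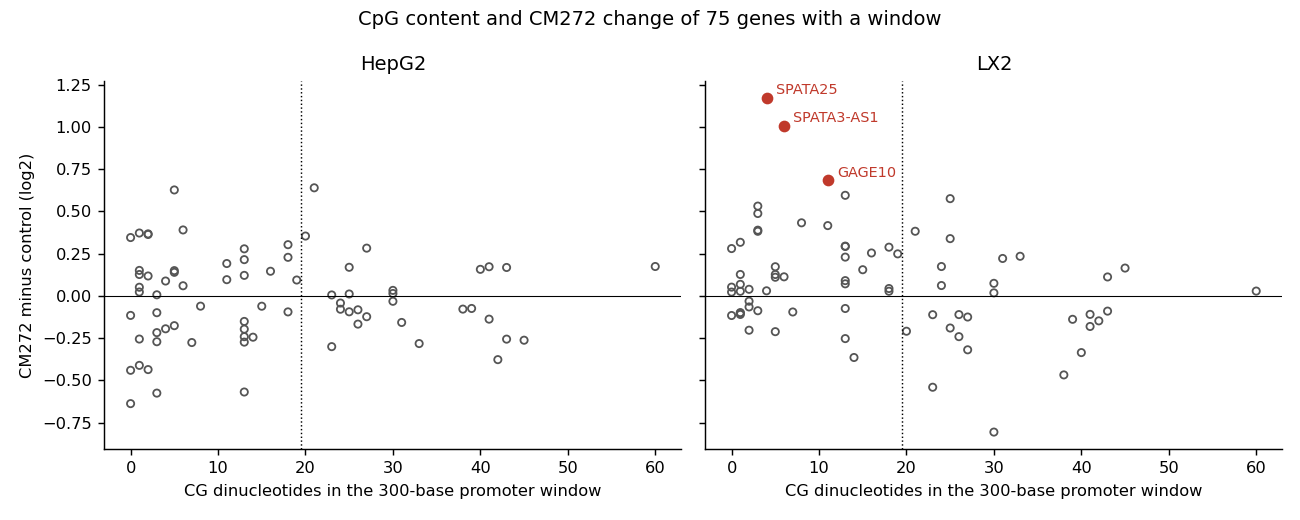
CM272 minus control difference (log2) of the 75 genes with a promoter window against the number of CG dinucleotides in it, for HepG2 (left) and LX2 (right), with genes past the limma threshold in red and a dotted line at 20. SPATA25, SPATA3-AS1 and GAGE10 stand at 4, 6 and 11 CG dinucleotides.

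Related genes outside the name families were set beside the shares of all genes in LX2, 2.43% higher and 2.67% lower (limma). Of 13 measured piRNA pathway partners PNLDC1, the exonuclease that trims piRNA precursors, was the only one that rose in LX2, with 5.01 and 5.17 in LX2 with CM272, against 3.90 and 3.94 in LX2 control (1.17, SE 0.16, limma adjusted p = 0.00858). In HepG2 PNLDC1 had 3.57 and 3.95 in HepG2 with CM272, against 3.72 and 3.72 in HepG2 control, and the difference between the lines did not pass (-1.13, limma adjusted p = 0.0761). By unadjusted p under 0.05 in LX2, 2 of the 13 partners were higher (15.4%, against 9.76% of all genes) and 1 lower (7.69%, against 12.1%). Of 32 listed meiosis and germ cell genes, TEX11 among them, 1 fell in LX2 and 0 rose. The gene that fell was SPDYA, an activator of CDK2 in meiosis (-0.63, SE 0.14, limma adjusted p = 0.0425). By unadjusted p under 0.05, 2 of the 32 were higher (6.25%) and 4 lower (12.5%). Of 25 other cancer-testis genes 0 passed limma. By unadjusted p under 0.05, 2 of the 25 were higher (8%, against 9.76% of all genes) and 3 lower (12%, against 12.1%). In HepG2 0 genes of these 3 lists passed limma, where 0.0134% of all genes did. By unadjusted p under 0.05, 1 was higher and 2 lower over the 3 lists, where 4.62% and 5.49% of all genes were. The medians in LX2 were 0.04, 0.11 and 0.08, beside 0.00 over all genes.

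Of 24 measured silencers of germline genes CBX3, a heterochromatin protein, was the only one that changed in LX2, with 6.93 and 7.54 in LX2 with CM272, against 8.27 and 8.24 in LX2 control (-1.02, SE 0.20, limma adjusted p = 0.0285). Over all genes 5.11% changed in LX2 and 2.67% fell (limma). By unadjusted p under 0.05, 4 of the 24 were higher (16.7%, against 9.76% of all genes) and 4 lower (16.7%, against 12.1%). Transcripts of the enzymes that CM272 inhibits did not pass. EHMT2, which encodes G9a, had 7.32 and 7.60 in HepG2 with CM272, against 7.07 and 7.12 in HepG2 control (0.37, limma adjusted p = 0.493), and in LX2 differed by 0.02. DNMT1 had 9.78 and 9.59 in LX2 with CM272, against 9.46 and 9.44 in LX2 control (0.24, limma adjusted p = 0.382), and in HepG2 differed by -0.05. Enzyme activity was not measured.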

How the data were processed

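RNA of 8 cell line samples was hybridised to 1 Affymetrix array each. The deposited table holds log2 expression values made by the authors with RMA, per the submitters' processing notes (version and genome build not given in the sources used here). RMA, which gives 1 value per probe set, compresses folds of dim genes. The platform annotation named a gene for 16098 of 48416 probe sets, several for 0 and none for 32318. Where a symbol had several probe sets (10 of the 91 genes), the brightest on average stood for it, giving 14884 symbols with no brightness filter. All 91 matched a RefSeq record by gene identifier. Every comparison came from limma 3.58.1 (R 4.3.3), fitted once to all 4 groups (4 residual and 5.21 prior degrees of freedom), two-sided, with Benjamini-Hochberg adjustment over 14884 genes and a threshold of 0.05. The fit was tested on simulated data. An exact permutation test of 2 arrays against 2 cannot go below p = 0.333. The labels do not say that replicates were separate cultures, so the p-values measure the spread between these samples. Same-numbered arrays were not paired by the labels. The genes, lists and tests were chosen with earlier results of these data known. Genes named were those past the threshold, the 8 largest control differences each way, and per family the brightest probe set and the largest change in each line, plus DAZL, DDX4 and MAEL. Arrays give no counts, and precision is limited by their number. Promoter windows came from RefSeq (GRCh38.p14), taking for each gene the one with most CG, and were aligned with Biopython 1.88; figures were drawn with matplotlib 3.10.9. Alternatives covered filters, normalizations, variance moderation, array weights, separate lines, a replicate block, probe set rules, an anchored name rule and leaving out each array. Counting genes with identical values once is among the alternatives counted, and it repeats the main fit because 0 of the 91 had identical values.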

Additional observations from a re-analysis of the deposited data

How the results depend on the processing

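Over 21 or 22 alternatives each, 0 of the 91 genes was called in HepG2 with CM272 in limma, and 0 was higher in the test between lines. The filters keep a gene that is over the limit in both arrays of any group. In LX2 the number that rose was 1 of 10 with a filter at log2 6 (10%, against 6.03% of all genes). It was 0 with each line fitted alone (fewer samples), where 0.598% of all genes rose. The number that fell in LX2 was 2 of 45 with a filter at log2 4 (4.44%, against 4.63% of all genes) and 2 of 91 with an intensity trend (2.2%, against 5.05%). It was 3 of 10 at log2 6 (30%, against 12%), namely TDRD3, SPATA20 and SPATA6. TDRD3 and SPATA6 passed that filter only through LX2 control, their bright group, so its share and its median are shaped by the filter. In the test between lines 1 of 10 was lower with the filter at log2 6 (10%, against 2.86% of all genes). This was SPATA25, which passed that filter in HepG2 and in LX2 with CM272 but not in LX2 control. Between control lines, 7 of 45 were higher with the filter at log2 4 (15.6%, against 17.7% of all genes) and 17 lower (37.8%, against 40.5%). At log2 6, 3 of 10 were higher (30%, against 22.9%) and 7 lower (70%, against 48.4%). With centred arrays 22 of 91 were higher (24.2%, against 28.4%) and 10 lower (11%, against 22.2%). With quantile normalization over 8 arrays 14 of 91 were higher (15.4%, against 24.8%) and 11 lower (12.1%, against 23.9%). Without single arrays 7 to 13 of 91 were higher and 14 to 25 lower. A fit without a control array leaves 1 array in that group. The median over the genes in LX2 was -0.24 with the filter at log2 6, -0.013 with quantile normalization over 8 arrays, -0.014 within each line, and -0.014 to 0.098 without single arrays. In HepG2 it was -0.041 with quantile normalization over 8 arrays, -0.045 within each line and -0.035 with centred arrays (-0.036 to 0.0021 without single arrays). Between the effects it was 0.29 with the filter at log2 6 (-0.12 to -0.0038). Between control lines it was -0.29 (filter at log2 4), -0.71 (log2 6), 0.030 (quantile, 8 arrays), -0.24 (quantile, within lines) and 0.11 (centred), and -0.22 to -0.11 without single arrays. No named call changed direction. Over all genes, LX2 calls numbered 362 higher and 398 lower, against 201 and 167 with the replicate block, 89 and 25 with each line alone and 108 and 67 with array weights. With the replicate block 2 of the 91 genes rose, SPATA25 (limma adjusted p = 0.0234) and SPATA3-AS1 (0.0444); differences of same-numbered arrays correlated at 0.05 in either line, so the samples share only a number. Causes were not tested beyond fewer genes or samples where stated. Depth is not defined for arrays, and dim genes limit what could be detected.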
